A study of Mus musculus with 24 samples.

Results

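The genes described here are 34 microglial genes measured in mouse brain tissue, 34 of the 52636 gene identifiers in the count files. The rule that picks them uses no measured value, although the genes were chosen with earlier results of these data known. They were matched by Ensembl identifier to GRCm38 gene symbols. All 34 were found, and 34 of 34 passed the filter on low counts that left 19726 genes to be tested. They fall into 3 role groups: 11 homeostatic genes, 10 genes shared by resting and reactive microglia or by myeloid cells at large, and 13 disease-associated genes. The purpose of the set was to contrast homeostatic with disease-associated genes across the 4 groups of mice.

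Total RNA was sequenced from the brains of 24 mice, 6 in each of 4 groups, in a study of the glutamate transporter EAAT2, which Slc1a2 encodes. The syn-Cre-positive mice carried syn-Cre and had the genotype EAAT2-/-, and their syn-Cre-negative controls were EAAT2+/+. The gfap-Cre-positive mice carried gfap-Cre with the genotype EAAT2Δ/+, and their gfap-Cre-negative controls were again EAAT2+/+. A synapsin promoter directs Cre to neurons and a GFAP promoter to astrocytes, so in neither line is Cre aimed at microglia. The labels' cell type field names the driver, while the RNA is of brain tissue and not of sorted cells. All 10 neuron, 10 astrocyte, 8 oligodendrocyte and 8 endothelial marker genes had counts in every library, as did all 34 microglial genes. The sources used here state no age, sex, strain or brain region. The lines differ in driver and genotype at once, and the labels give no batch, so line, colony and any difference in handling cannot be told apart.

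Microglia are the resident macrophages of the brain and depend on signalling through the CSF1 receptor. Undisturbed microglia express a set of surface receptors and regulators, among them the purinergic receptors P2ry12 and P2ry13, Tmem119, the fractalkine receptor Cx3cr1 and the transcription factor Sall1, which are known as homeostatic genes. Around plaques, dying neurons and damaged myelin, microglia lower many of these and take up a disease-associated state marked by Cst7, Itgax, Clec7a, Lpl, Axl, Spp1 and lysosomal proteases, whose full form depends on the lipid receptor Trem2 and its adaptor Tyrobp.

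Each library held between 41596313 and 69652824 reads counted in genes. Levels are in CPM, a gene's count relative to the library size, which was scaled by TMM. Slc1a2 did not pass the test in either line, with a log2 fold change of -0.14 for syn Cre and -0.02 for gfap Cre (edgeR adjusted p = 1 in both). Which part of the gene was removed is not stated, so this gene-level count checks the genotype labels in part only. Between the lines it was lower in syn-Cre-positive than in gfap-Cre-positive libraries (log2 difference -0.21, adjusted p = 0.044). Libraries of the syn line stood apart in other ways. Ttr, the transthyretin gene made in quantity by the choroid plexus, exceeded 1000 CPM in 3 of 6 syn-Cre-positive libraries (replicates 2, 5 and 6) and 3 of 6 syn-Cre-negative libraries (replicates 3, 4 and 6). It ran from 21.04 to 224 CPM in the 12 libraries of the gfap line. Reads outside annotated genes took 7.52 to 11.1% of a syn library and 4.47 to 6.37% of a gfap library. The main comparisons of the lines are therefore also given without these 6 libraries.

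Stretches before the start sites of 6 of these genes are printed because their transcripts carry the comparisons that follow: P2ry12 and P2ry13 as homeostatic receptors, Trem2 as the receptor of the state change, and Itgax, Clec7a and Cst7 as disease-associated genes. Each line holds the 150 bases before the RefSeq start, 5′ to 3′ on the gene's strand (GRCm38.p6). Capitals mark GAGGAA or its reverse complement TTCCTC, the core of the site bound by PU.1, the transcription factor on which microglia and other myeloid cells depend.

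P2ry12 (chr3:59262986-59263135, minus strand): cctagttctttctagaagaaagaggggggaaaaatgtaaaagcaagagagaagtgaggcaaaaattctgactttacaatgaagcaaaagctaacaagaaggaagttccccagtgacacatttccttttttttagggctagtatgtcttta

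P2ry13 (chr3:59210883-59211032, minus strand): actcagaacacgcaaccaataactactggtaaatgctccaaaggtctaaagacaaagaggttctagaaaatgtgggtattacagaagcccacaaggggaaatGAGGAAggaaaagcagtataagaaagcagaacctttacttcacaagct

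Trem2 (chr17:48346251-48346400, plus strand): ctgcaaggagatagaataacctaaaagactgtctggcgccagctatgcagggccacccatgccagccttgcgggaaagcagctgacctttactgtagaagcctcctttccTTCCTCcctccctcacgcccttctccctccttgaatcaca

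Itgax (chr7:128129400-128129549, plus strand): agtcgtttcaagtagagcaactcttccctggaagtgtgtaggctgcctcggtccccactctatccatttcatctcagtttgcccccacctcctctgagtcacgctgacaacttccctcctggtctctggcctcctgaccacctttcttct

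Clec7a (chr6:129472780-129472929, minus strand): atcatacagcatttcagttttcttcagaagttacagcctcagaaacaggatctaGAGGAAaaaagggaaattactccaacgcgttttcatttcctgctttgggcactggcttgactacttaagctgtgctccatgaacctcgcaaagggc

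Cst7 (chr2:150570265-150570414, plus strand): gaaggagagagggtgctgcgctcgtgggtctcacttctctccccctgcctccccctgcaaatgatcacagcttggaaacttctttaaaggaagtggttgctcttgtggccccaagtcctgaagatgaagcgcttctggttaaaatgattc

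GAGGAA was searched on both strands in the 250 bases before each RefSeq start, for 26 of the 34 genes. Csf1r, on chromosome 18, was left out of the search, and Tmem119, Selplg, Gpr34, Tyrobp, Lpl, Ctsb and Cd52 were not matched. For 24 of the 32 entries of these genes the first bases after the start lay near the beginning of an annotated transcript. The letters occurred before 15 of 26 genes (57.7%), and before 25.9% of the 27025 genes in the RefSeq table. They occurred before 8 of 9 shared genes, 5 of 10 disease-associated genes and 2 of 7 homeostatic genes, the last being P2ry13 and Fcrls. The E-box CACGTG, the core letters bound by basic helix-loop-helix factors such as TFEB, was present before P2ry12, Siglech, Lgmn and Ctsd, 4 of 26 genes (15.4%) against 6.86% of all genes. These motifs can share at most 1 base. A match describes letters in this window and is not a bound site.

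Levels spanned a wide range when counts were divided by exon length (RPKM, the mean of 4 group means). The lysosomal proteases stood highest, with Ctsb at 92.7, Ctsd at 78.2, Ctss at 65.9 and Lgmn at 44.2 RPKM. Among homeostatic genes Csf1r stood at 19.9, P2ry12 at 17.6, Cx3cr1 at 14.3 and Tmem119 at 11.1 RPKM. The lowest levels were those of Cst7 at 0.392, Clec7a at 0.388, Ptprc at 0.249 and Itgax at 0.151 RPKM. The proteases, Lpl, Axl and Cd63 are also transcribed by other brain cells, so their level in tissue is not that of microglia alone.

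**Figure D1:**
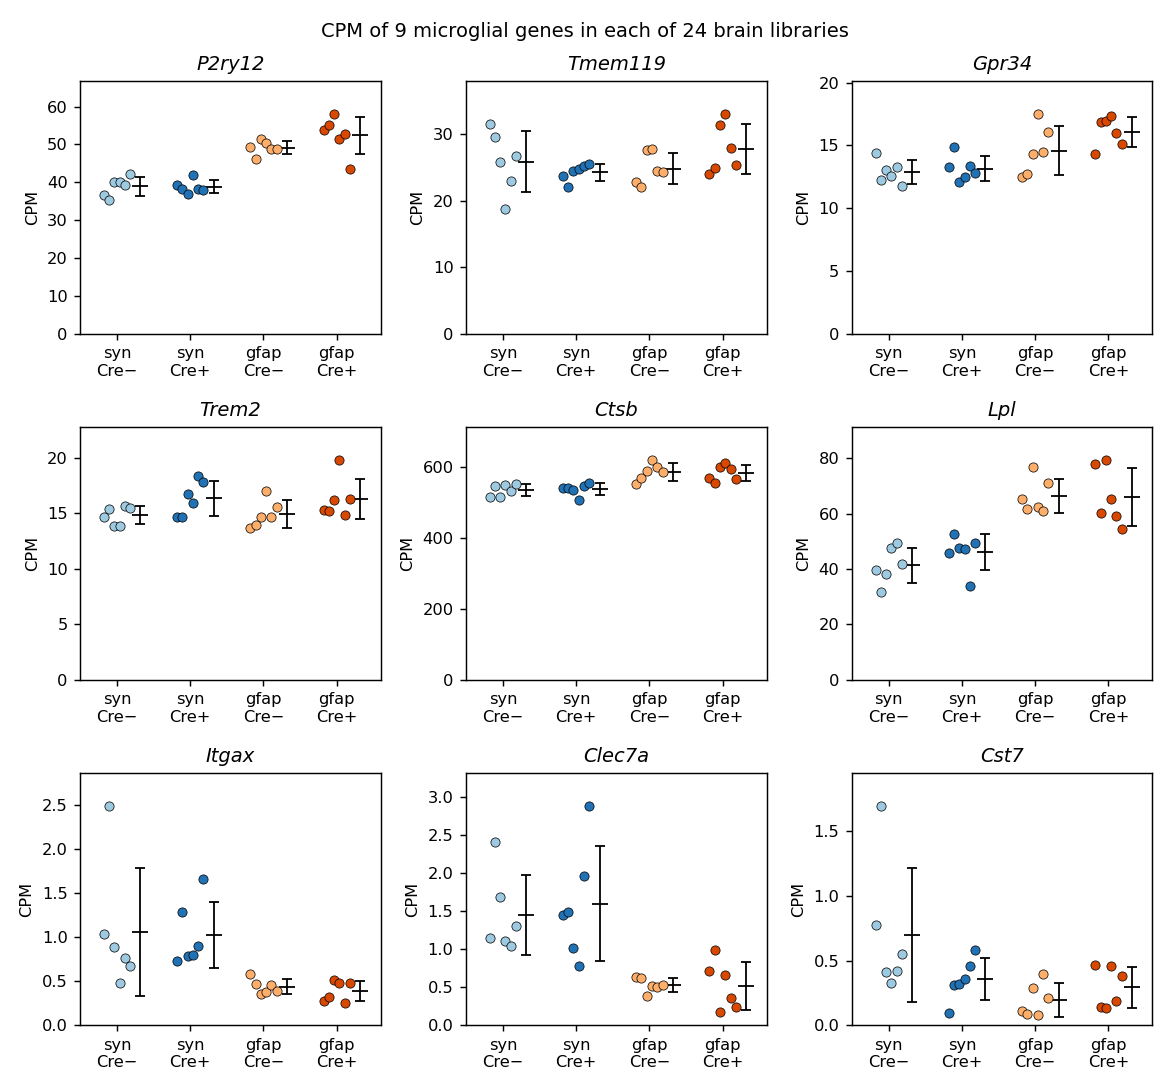
CPM of 9 microglial genes, 1 point for each of the 24 libraries in replicate order within a group, with the group mean and SD beside the points. The scale on each vertical axis starts at 0. P2ry12 and Lpl lie lower in the syn line than in the gfap line, Itgax and Clec7a lie higher there, and the Cre-positive and Cre-negative groups of a line overlap in every panel.

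The first question was whether homeostatic and disease-associated genes shifted in balance between Cre-positive and Cre-negative brains of either line. By label the syn-Cre-positive mice were EAAT2-/-. The gfap-Cre-positive mice, EAAT2Δ/+, kept a + allele, so their comparison is not of a full loss. In the syn line none of the 34 genes was called higher or lower in Cre-positive than in Cre-negative brains, and 1 of all 19726 genes was (0.00507%; edgeR, adjusted p under 0.05). At an unadjusted p under 0.05 there was 1 of 34 genes and 922 of 19726. DESeq2 and limma-voom also called 0 of 34. The median log2 fold change was 0.03 over the homeostatic, 0.06 over the shared and 0.03 over the disease-associated genes, beside -0.003 over all genes tested. The sign of the disease-associated median depended on the libraries: it was -0.17 without the 6 libraries high in Ttr, where 3 of 13 genes were positive in place of 8, -0.12 without syn-Cre-positive replicate 6 alone, and -0.02 in limma-voom (4 of 13 positive). It was also below 0 without syn-Cre-positive replicate 5 or syn-Cre-negative replicate 1, 5 or 6. For 29 of 34 genes the 95% interval lay within a 1.5-fold change in either direction. These were 11 of 11 homeostatic, 10 of 10 shared and 8 of 13 disease-associated genes, so the disease-associated side was less closely bounded. Because tissue was sequenced, fewer microglia and less RNA per microglial cell cannot be told apart in any of these values.

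Among homeostatic genes P2ry12, a receptor for ADP that steers microglial processes to injury (ENSMUSG00000036353, GRCm38 chromosome 3, 59216272 to 59262871), ran from 37.01 to 42.04 (median 38.2) CPM with syn Cre and 35.4 to 42.2 (median 39.6) CPM without it. The groups overlapped over nearly their whole range, and the log2 fold change was -0.01 (95% interval -0.12 to 0.11). Tmem119, a membrane protein used to mark microglia, ran from 22.1 to 25.5 (median 24.6) CPM with Cre and 18.8 to 31.5 (median 26.3) CPM without it, a log2 fold change of -0.09 ± 0.096 (SE). P2ry13, a neighbouring ADP receptor, had the smallest unadjusted p of its role group, with 12.9 to 14.8 (median 13.4) CPM with Cre, 10.6 to 15.8 (median 11.98) CPM without it and a log2 fold change of 0.13 ± 0.086. Its groups overlapped. Cx3cr1, the receptor for neuronal fractalkine, stood at 60.5 to 68.2 (median 63.6) and 57.5 to 66.8 (median 60.8) CPM, with a log2 fold change of 0.06 ± 0.055. Each of these 4 had an edgeR adjusted p of 1.

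Trem2, the lipid receptor that disease-associated microglia need, ran from 14.6 to 18.3 (median 16.3) CPM with syn Cre and 13.8 to 15.7 (median 15) CPM without it. Its log2 fold change was 0.14 ± 0.074, and the ranges overlapped. Laptm5, a lysosomal membrane protein of blood-derived cells and microglia, stood at 37.7 to 48.8 (median 41.7) and 36.2 to 46.2 (median 37.2) CPM, with a log2 fold change of 0.11 ± 0.064. Neither passed (adjusted p = 1 for both in edgeR). Cst7, which encodes the protease inhibitor cystatin F (ENSMUSG00000068129, GRCm38 chromosome 2, 150570415 to 150578944), ran from 0.0964 to 0.582 (median 0.3404) CPM with Cre and 0.326 to 1.698 (median 0.485) CPM without it. The highest value, 1.70 CPM, came from syn-Cre-negative replicate 2, and the groups overlapped. Its log2 fold change was -0.98 ± 0.43 (unadjusted p = 0.0317, edgeR adjusted p = 1), -0.49 without that library and -1.88 without the libraries high in Ttr. Itgax, which encodes the integrin CD11c (ENSMUSG00000030789, GRCm38 chromosome 7, 128129547 to 128150657), ran from 0.733 to 1.66 (median 0.847) and 0.479 to 2.49 (median 0.827) CPM, a log2 fold change of -0.05 ± 0.30 that was 0.41 without the same library and -0.89 without the libraries high in Ttr. Lpl, the lipoprotein lipase gene (ENSMUSG00000015568, GRCm38 chromosome 8, 68880491 to 68907448), ran from 33.7 to 52.6 (median 47.3) and 31.7 to 49.3 (median 40.6) CPM, with a log2 fold change of 0.16 ± 0.11. Counts of Cst7 and Itgax ran from 4 to 88 and from 12 to 129 per library, which limits their precision.

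In the gfap line 0 of 34 genes were called, against 2 of 19726 genes (0.0101%), and DESeq2 and limma-voom again called none of the 34. At an unadjusted p under 0.05 there were 3 of 34 genes, Olfml3, Selplg and Lyz2, and 590 of 19726. The median log2 fold change was 0.10 over homeostatic, 0.06 over shared and 0.02 over disease-associated genes, against -0.003 over all genes. All 11 homeostatic genes had a positive log2 fold change, from 0.02 to 0.25, also with RLE and upper-quartile scaling (10 of 11 in limma-voom), beside 7 of 10 shared genes, 8 of 13 disease-associated genes and 48.8% of all genes. None of the 11 passed the test. Of 14 homeostatic microglial genes outside the set, 11 were positive, with a median of 0.03. The 95% interval lay within 1.5-fold for 28 of 34 genes, namely 11 of 11 homeostatic, 10 of 10 shared and 7 of 13 disease-associated genes. Of other cells' markers, 7 of 7 border macrophage, 6 of 6 meningeal fibroblast and 8 of 8 endothelial genes also had positive log2 fold changes for gfap Cre. Their medians were 0.51, 0.40 and 0.06, and none was called. Astrocyte genes were positive in 9 of 10 cases (median 0.05), while 8 of 8 oligodendrocyte genes were negative (median -0.08). The part of these cells in the homeostatic values was not tested.

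Olfml3, a secreted olfactomedin-like protein typical of microglia, ran from 21.4 to 28.1 (median 23.3) CPM with gfap Cre and 18.9 to 21.3 (median 20.4) CPM without it. Its groups did not overlap, which held for 24 of 19726 genes in this direction (0.122%). The log2 fold change was 0.25 ± 0.081 (unadjusted p = 0.00421, edgeR adjusted p = 1). Selplg, the ligand of selectins, stood at 31.1 to 42.3 (median 36.6) CPM with Cre and 30.7 to 35.2 (median 33.8) CPM without it, overlapping, with a log2 fold change of 0.15 ± 0.073. P2ry12 ran from 43.4 to 58.03 (median 53.3) and 46.2 to 51.5 (median 49.05) CPM, with a log2 fold change of 0.09 ± 0.056. Tmem119 ran from 24.1 to 33.04 (median 26.6) and 22.1 to 27.8 (median 24.4) CPM, with a log2 fold change of 0.16 ± 0.096. For P2ry12 the lowest and the highest library of the 12 were both Cre-positive.

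Ptprc, the leukocyte phosphatase CD45, ran from 3.94 to 5.13 (median 4.36) CPM with gfap Cre and 2.898 to 4.65 (median 3.77) CPM without it, a log2 fold change of 0.22 ± 0.12. Trem2 ran from 14.8 to 19.8 (median 15.8) and 13.7 to 17.01 (median 14.7) CPM, with a log2 fold change of 0.12 ± 0.074 and overlapping groups. Lyz2, the lysozyme gene of macrophages, ran from 7.98 to 15.9 (median 13.03) CPM with Cre and 7.02 to 11.8 (median 9.41) CPM without it. Its log2 fold change was 0.46 ± 0.22 (unadjusted p = 0.0442, edgeR adjusted p = 1), and reads shared with the near-identical Lyz1 make its count uncertain. Cd68, a lysosomal glycoprotein, ran from 7.89 to 10.6 (median 8.84) and 7.45 to 9.198 (median 8.34) CPM (log2 fold change 0.13 ± 0.088). The sparse Cst7 ran from 0.133 to 0.468 (median 0.285) and 0.0789 to 0.395 (median 0.163) CPM (log2 fold change 0.59 ± 0.48), and Itgax from 0.254 to 0.512 (median 0.402) and 0.352 to 0.579 (median 0.425) CPM (log2 fold change -0.16 ± 0.33). Their 95% intervals ran from -0.39 to 1.58 and from -0.84 to 0.51, so the depth leaves wide room for a change in either direction.

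**Figure D2:**
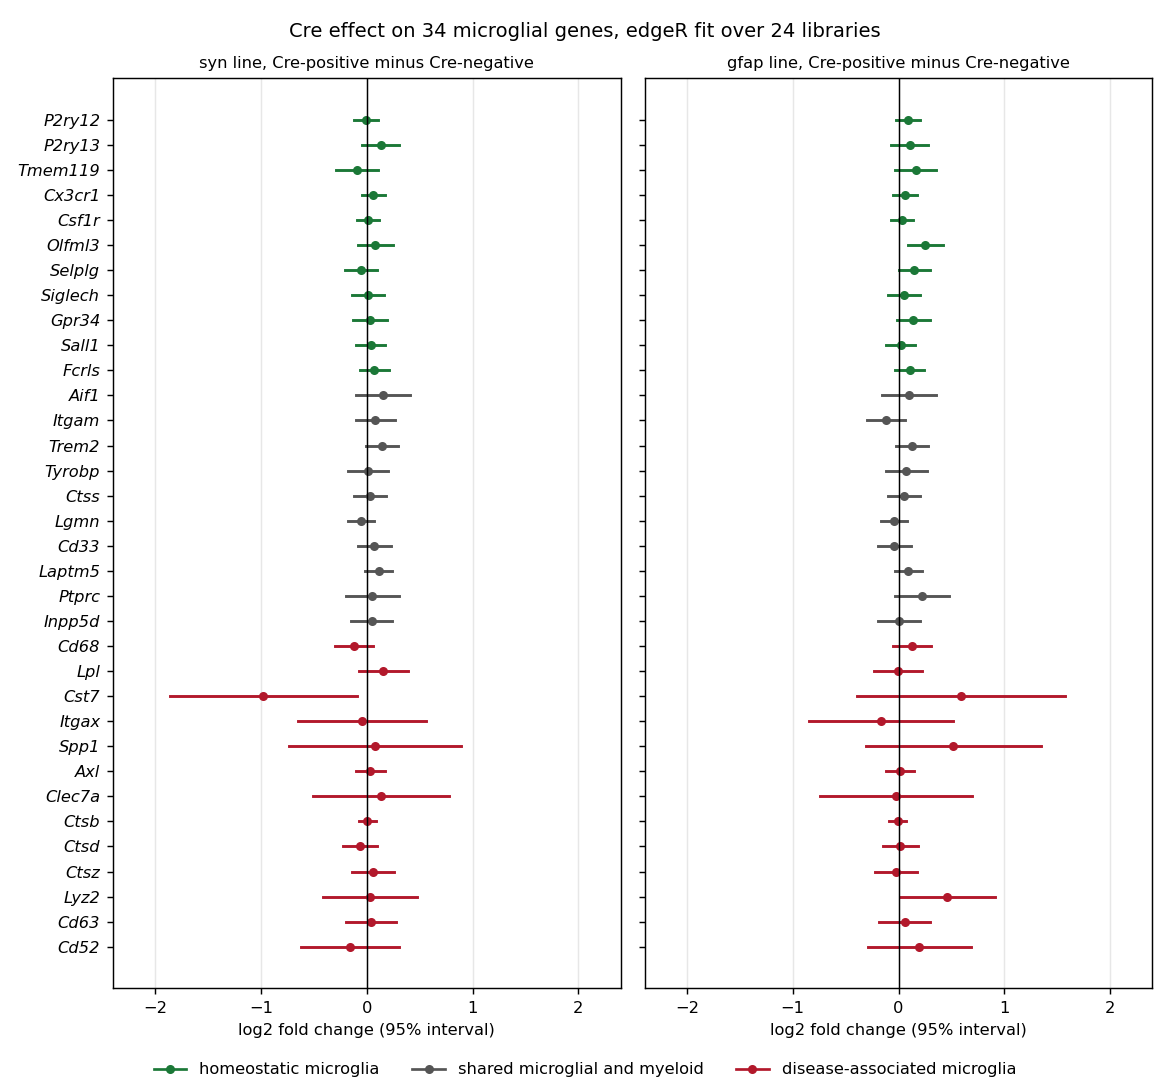
Cre effect on each of the 34 genes, Cre-positive minus Cre-negative, as log2 fold change with its 95% interval from edgeR, for the syn line (left) and the gfap line (right). Intervals clear of 0 are those of Cst7 in the syn line and of Olfml3, Selplg and Lyz2 in the gfap line, and none belongs to a called gene. The widest are those of Spp1 and of the low genes Cst7, Itgax, Clec7a and Cd52, and the 11 homeostatic points of the gfap line lie above 0.

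The difference between the lines in the Cre effect, syn minus gfap, was tested as an interaction. None of the 34 genes was called, against 2 of 19726 (0.0101%), and 1 of 34 had an unadjusted p under 0.05. That gene was Cst7, with a difference of -1.57 ± 0.65 on the log2 scale (unadjusted p = 0.0218, edgeR adjusted p = 1). The other differences with the smallest unadjusted p of their role group were -0.20 ± 0.10 for Selplg, -0.25 ± 0.14 for Tmem119, -0.25 ± 0.12 for Cd68, 0.20 ± 0.12 for Itgam and 0.11 ± 0.11 for Cd33. The differences of P2ry12 and Itgax were -0.10 ± 0.080 and 0.12 ± 0.44, and all of these had an edgeR adjusted p of 1. The role-group medians of the difference were -0.04, 0.02 and -0.02 for homeostatic, shared and disease-associated genes.

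The lines themselves differed, and they did so in Cre-negative brains as in Cre-positive ones. Among Cre-negative libraries, which are EAAT2+/+ in both lines, 11 of 34 genes were called (6 higher and 5 lower in syn than in gfap), beside 6161 of 19726 genes (31.2%). Among Cre-positive libraries 9 of 34 were called (3 higher and 6 lower), beside 5416 genes (27.5%). The share of microglial genes called was therefore near the share of all genes in both comparisons. These comparisons share no library but come from 1 fit. Higher calls were 46.8% of all calls in the Cre-negative and 46.5% in the Cre-positive comparison, and 58.5% and 65.5% with upper-quartile scaling. Without gfap-Cre-positive replicate 3, 4, 5 or 6 the Cre-positive comparison kept 5 calls, and without the 6 libraries high in Ttr it had 5 of 34, beside 2259 of 20194 genes (11.2%). Without those 6 libraries the Cre-negative comparison had 10 of 34, beside 3647 of 20194 genes (18.1%).

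In Cre-negative brains 2 of 11 homeostatic genes were called, both lower in the syn line (P2ry12 and P2ry13), beside 16.6% of all genes called lower, which is near the same share. In Cre-positive brains 4 of 11 were called, all lower (P2ry12, Gpr34, Csf1r and Selplg), beside 14.7% of all genes, and 2 of 11 with RLE or upper-quartile scaling. In Cre-negative brains 1 homeostatic gene was called higher and 1 lower with upper-quartile scaling, with the filter of 1 CPM and in DESeq2. In limma-voom 4 of 11 were called lower in Cre-negative and 5 of 11 in Cre-positive brains, and 0 higher in both. Of the 13 disease-associated genes, 5 were called higher (Cst7, Itgax, Clec7a, Lyz2 and Cd52) and 2 lower (Lpl and Ctsb) in Cre-negative brains, beside 14.6% of all genes called higher. In Cre-positive brains 2 were called higher (Itgax and Clec7a), beside 12.8% of all genes, and 2 lower (Lpl and Ctsb). Called in both comparisons were Itgax and Clec7a as higher (2 of 34, beside 9.29% of all genes) and P2ry12, Lpl and Ctsb as lower (3 of 34, beside 10.6%). The shared genes gave Ptprc higher and Itgam lower in the first comparison and Cd33 higher in the second. The median log2 difference, syn minus gfap, was -0.09 in Cre-negative and -0.17 in Cre-positive brains for homeostatic genes, 0.01 and 0.002 for shared genes and 0.26 and 0.24 for disease-associated genes, beside -0.02 for all genes in both. Without the libraries high in Ttr the disease-associated median was 0.11 in Cre-negative and -0.12 in Cre-positive brains, and the homeostatic median -0.06 and -0.14.

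**Figure D3:**
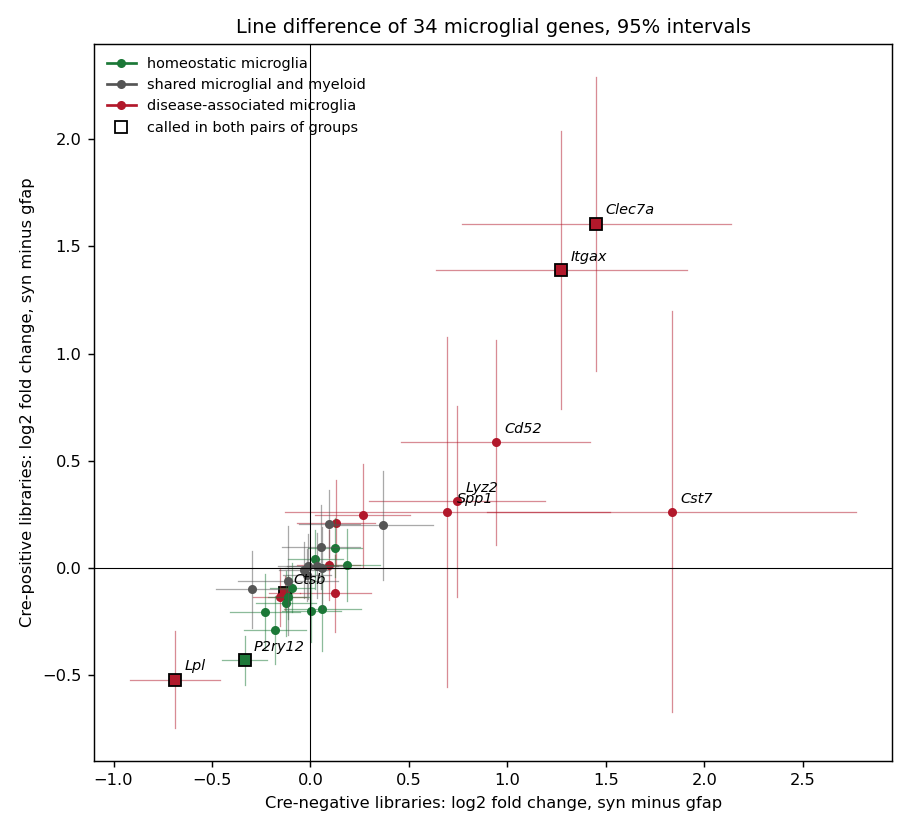
Log2 fold change of the 34 genes between the lines, syn minus gfap, in Cre-negative libraries (horizontal) and Cre-positive libraries (vertical), with 95% intervals. Colours mark the role groups, and squares mark the 5 genes called in both. Itgax and Clec7a lie to the upper right, Lpl, P2ry12 and Ctsb to the lower left, and Cst7 lies far to the right with a Cre-positive value of 0.26.

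P2ry12 was lower in the syn line in both comparisons. In Cre-negative brains it ran from 35.4 to 42.2 (median 39.6) CPM in syn and 46.2 to 51.5 (median 49.05) CPM in gfap, and the groups did not overlap (1071 of 19726 genes in this direction, 5.43%). Its log2 difference was -0.34 ± 0.056 (SE; fold 0.793, edgeR adjusted p = 9.6e-05). In Cre-positive brains the ranges of 37.01 to 42.04 (median 38.2) and 43.4 to 58.03 (median 53.3) CPM again did not overlap (1508 of 19726 genes in this direction, 7.64%). There the log2 difference was -0.43 ± 0.056 (fold 0.741, adjusted p = 6.9e-06). The call held in all 24 fits that left out 1 library and in 9 of 9 other settings in each comparison. P2ry12 and P2ry13 lie inside Med12l, on the opposite strand. Med12l averaged 34 CPM, and P2ry12 shares 9 of 2546 exon bases with it.

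P2ry13 ran from 10.6 to 15.8 (median 11.98) CPM in syn-Cre-negative and 11.3 to 15.98 (median 15.2) CPM in gfap-Cre-negative libraries, overlapping. Its log2 difference of -0.23 ± 0.086 passed (adjusted p = 0.0419), but the call was lost in 13 of 24 fits without 1 library and in 6 of 9 other settings, DESeq2 among them. In Cre-positive libraries the difference was -0.21 ± 0.086 (adjusted p = 0.0744). Gpr34, a receptor for lysophosphatidylserine, ran from 12.1 to 14.9 (median 13.1) CPM in syn-Cre-positive and 14.3 to 17.3 (median 16.4) CPM in gfap-Cre-positive libraries. It was lower by a log2 difference of -0.29 ± 0.078 (adjusted p = 0.00694), a call kept in all 33 other fits. Among Cre-negative libraries, at 11.8 to 14.4 (median 12.8) and 12.5 to 17.5 (median 14.4) CPM, its difference of -0.18 ± 0.078 did not pass (adjusted p = 0.0779). Gpr34 lies inside Cask on the opposite strand, which averaged 64.9 CPM, and shares no exon base with it.

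Csf1r, the receptor for CSF1 and IL-34 on which microglia depend, ran from 105 to 120.5 (median 109) CPM in syn-Cre-positive and 115 to 127 (median 121) CPM in gfap-Cre-positive libraries (log2 difference -0.14 ± 0.050, adjusted p = 0.0411). Selplg stood at 30.3 to 34.1 (median 32.5) and 31.1 to 42.3 (median 36.6) CPM in the same groups (log2 difference -0.20 ± 0.073, adjusted p = 0.0402). Neither call was stable: the Csf1r call was lost in 14 and the Selplg call in 13 of 24 fits without 1 library, and each in 6 of 9 other settings, the fit without the libraries high in Ttr among them. Among Cre-negative libraries Csf1r ran from 100.4 to 122 (median 107) and 108 to 125 (median 122) CPM and Selplg from 27.8 to 39.6 (median 32.96) and 30.7 to 35.2 (median 33.8) CPM, with log2 differences of -0.11 ± 0.050 and 0.0042 ± 0.073 that did not pass. Csf1r shares 15.1% of its exon bases with Hmgxb3 on the opposite strand, which averaged 38.5 CPM.

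Other homeostatic genes did not pass in either comparison in the main edgeR fit. Tmem119 had log2 differences of 0.06 ± 0.096 in Cre-negative (adjusted p = 0.661) and -0.19 ± 0.096 in Cre-positive brains (adjusted p = 0.135). Olfml3, at 18.7 to 26.8 (median 23.1) CPM in syn-Cre-negative and 21.8 to 28.3 (median 24) CPM in syn-Cre-positive libraries, had log2 differences of 0.19 ± 0.082 (adjusted p = 0.0829) and 0.01 ± 0.081 (adjusted p = 0.928), and with upper-quartile scaling the first was 0.22 and passed (adjusted p = 0.0418). The remaining 4, Cx3cr1, Siglech, Sall1 and Fcrls, had log2 differences between -0.17 and 0.13. In the order syn-Cre-positive, syn-Cre-negative, gfap-Cre-positive and gfap-Cre-negative, Siglech, a sialic acid receptor that signals through DAP12, averaged 15.4 ± 1.52, 15.3 ± 1.04, 17.2 ± 1.39 and 16.6 ± 1.62 CPM (mean ± SD, n = 6 in each group here and below). Sall1, the zinc finger regulator of microglial identity that other brain cells also express, averaged 27.4 ± 2.06, 26.7 ± 2.71, 26.6 ± 1.66 and 26.2 ± 2.16 CPM. Fcrls, an Fc receptor-like protein of microglia, averaged 26.4 ± 1.73, 25.1 ± 2.84, 24.7 ± 1.6 and 22.99 ± 1.59 CPM. None of these 3 was called in the 5 comparisons of the main edgeR fit.

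Itgax was higher in the syn line in both comparisons. Among Cre-negative libraries it ran from 0.479 to 2.49 (median 0.827) CPM in syn and 0.352 to 0.579 (median 0.425) CPM in gfap. The groups overlapped, with syn-Cre-negative replicate 2 at 2.49 CPM far above the rest. The log2 difference was 1.27 ± 0.31 (fold 2.42, edgeR adjusted p = 0.00308), and 0.81 (adjusted p = 0.0223) without replicate 2. Among Cre-positive libraries the ranges of 0.733 to 1.66 (median 0.847) and 0.254 to 0.512 (median 0.402) CPM did not overlap (1115 of 19726 genes in this direction, 5.65%). The log2 difference was 1.39 ± 0.32 (fold 2.62, adjusted p = 0.00218). It was called in each of the 24 fits without 1 library and in 8 of 8 other settings that tested it. Without the libraries high in Ttr its differences were 1.73 (adjusted p = 0.000855) and 1.01 (adjusted p = 0.0468).

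Clec7a, which encodes the beta-glucan receptor Dectin-1 (ENSMUSG00000079293, GRCm38 chromosome 6, 129461591 to 129472779), was also higher in the syn line in both. It ran from 1.04 to 2.41 (median 1.23) CPM in syn-Cre-negative and 0.382 to 0.634 (median 0.519) CPM in gfap-Cre-negative libraries, without overlap (1092 of 19726 genes in this direction, 5.54%). The log2 difference was 1.45 ± 0.33 (fold 2.73, adjusted p = 0.00189). Among Cre-positive libraries it ran from 0.776 to 2.89 (median 1.47) and 0.171 to 0.991 (median 0.509) CPM, overlapping, with a log2 difference of 1.61 ± 0.33 (fold 3.05, adjusted p = 0.00105). Without the libraries high in Ttr the difference was 1.55 (adjusted p = 0.00778) in Cre-negative brains, and 1.07 in Cre-positive brains, where it no longer passed (adjusted p = 0.0759).

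Cst7 differed between the lines in Cre-negative brains. At 0.326 to 1.698 (median 0.485) CPM in syn and 0.0789 to 0.395 (median 0.163) CPM in gfap the groups overlapped, and the log2 difference was 1.83 ± 0.46 (fold 3.56, adjusted p = 0.0036). Without syn-Cre-negative replicate 2 it was 1.35 (adjusted p = 0.0225). In Cre-positive brains, at 0.0964 to 0.582 (median 0.3404) and 0.133 to 0.468 (median 0.285) CPM, the difference of 0.26 ± 0.46 did not pass (adjusted p = 0.712), and it was -0.15 without the libraries high in Ttr. The contrast between these values is the interaction of -1.57 given above, which did not pass.

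Cd52, a small surface glycoprotein of leukocytes and microglia, ran from 1.202 to 2.24 (median 1.497) CPM in syn-Cre-negative and 0.483 to 1.38 (median 0.808) CPM in gfap-Cre-negative libraries (log2 difference 0.94 ± 0.23, adjusted p = 0.00346). Among Cre-positive libraries, at 1.05 to 2.098 (median 1.34) and 0.7197 to 1.54 (median 0.89) CPM, its difference was 0.59 ± 0.23 (adjusted p = 0.0613). Cd52 shares 14.5% of its exon bases with Crybg2 on the opposite strand, which averaged 0.8999 CPM, near the level of Cd52 itself. Lyz2 ran from 10.5 to 25.8 (median 14.4) CPM in syn-Cre-negative and 7.02 to 11.8 (median 9.41) CPM in gfap-Cre-negative libraries, with replicate 2 of syn the highest, and its log2 difference was 0.74 ± 0.22 (adjusted p = 0.0126). In syn-Cre-positive libraries Lyz2 ran from 12.2 to 24.9 (median 14.2) CPM, and the Cre-positive difference of 0.31 ± 0.21 did not pass (adjusted p = 0.3). For Itgax, Clec7a, Cst7, Cd52 and Lyz2 alike, both gfap groups had a lower mean than both syn groups. These genes are the disease-associated ones called higher in Cre-negative syn libraries, so that choice fixes part of the pattern.

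Lpl went the other way from these disease-associated genes. It ran from 31.7 to 49.3 (median 40.6) CPM in syn-Cre-negative and 61.1 to 76.9 (median 63.98) CPM in gfap-Cre-negative libraries. The groups did not overlap (1071 of 19726 genes in this direction, 5.43%). Its log2 difference was -0.69 ± 0.11 (fold 0.621, edgeR adjusted p = 9.8e-05). Among Cre-positive libraries the ranges of 33.7 to 52.6 (median 47.3) and 54.4 to 79.5 (median 62.9) CPM did not overlap either (1508 of 19726 genes in this direction, 7.64%). The difference there was -0.52 ± 0.11 (fold 0.697, edgeR adjusted p = 0.00141). The call held in all 24 fits without 1 library and in 9 of 9 other settings in both comparisons. Lpl is made by neurons and vascular cells as well as by microglia. Beside it, 9 of 10 neuron markers were called lower in Cre-negative and 7 of 10 in Cre-positive syn libraries, and 5 and 6 of 8 endothelial markers were lower, and their part in the Lpl values was not tested.

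Ctsb, the lysosomal cysteine protease cathepsin B, ran from 515 to 551 (median 540.0) CPM in syn-Cre-negative and 552 to 621 (median 588) CPM in gfap-Cre-negative libraries, a log2 difference of -0.13 ± 0.039 (adjusted p = 0.0123). The ranges did not overlap (1071 of 19726 genes in this direction, 5.43%). Among Cre-positive libraries, at 507 to 556 (median 541) and 555 to 613 (median 584) CPM, the difference was -0.12 ± 0.039 (adjusted p = 0.0254). The first call was lost in 4 of 9 other settings, and the second in 6 of 9 and in 8 of 24 fits without 1 library. Both were lost with upper-quartile scaling and without the libraries high in Ttr, and Ctsb shares 12.8% of its exon bases with Fdft1 on the opposite strand.

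The other disease-associated genes did not pass in either comparison. Cd68 averaged 8.35 ± 0.792, 9.09 ± 0.714, 9.07 ± 1.16 and 8.32 ± 0.756 CPM in the order used above. Spp1, the secreted phosphoprotein osteopontin, averaged 6.71 ± 4.01, 6.32 ± 3.09, 5.59 ± 2.65 and 3.92 ± 1.29 CPM, and shares 18.8% of its exon bases with Gm42793 on the same strand. Axl, a receptor for phosphatidylserine bridged by Gas6, averaged 51.1 ± 5.997, 49.9 ± 3.38, 56.2 ± 2.098 and 55.6 ± 4.797 CPM. Of the lysosomal genes, Ctsd, the aspartic protease cathepsin D, averaged 183 ± 26.96, 191 ± 15.03, 182 ± 15.1 and 179 ± 16.8 CPM, and shares 34.4% of its exon bases with the predicted gene Gm49369 on the same strand, which had 0 CPM. Ctsz, a carboxypeptidase of lysosomes, averaged 39.7 ± 5.33, 38.2 ± 5.29, 34.4 ± 3.502 and 34.9 ± 4.87 CPM. Cd63, a tetraspanin of late endosomes, averaged 46.05 ± 8.54, 44.8 ± 8.65, 38.9 ± 3.36 and 37.3 ± 3.901 CPM. The log2 differences between the lines of these 6 genes ran from -0.16 to 0.69, the largest being that of Spp1 in Cre-negative brains.

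Among shared genes Itgam, the integrin CD11b, ran from 6.26 to 8.09 (median 6.83) CPM in syn-Cre-negative and 7.35 to 9.42 (median 8.85) CPM in gfap-Cre-negative libraries, overlapping (log2 difference -0.30 ± 0.088, adjusted p = 0.0115). It held the call in all 33 other fits. In Cre-positive libraries, at 6.898 to 8.79 (median 7.19) and 6.72 to 8.91 (median 8.004) CPM, the difference was -0.10 ± 0.088 (adjusted p = 0.42). Itgam shares 68.7% of its exon bases with the predicted gene Gm49368 on the same strand, which averaged 0.00161 CPM, so how reads in the shared bases were counted bears on its value. Ptprc ran from 3.93 to 6.25 (median 4.66) CPM in syn-Cre-negative and 4.403 to 6.46 (median 4.9) CPM in syn-Cre-positive libraries, with differences from gfap of 0.37 ± 0.12 (adjusted p = 0.0258) and 0.20 ± 0.12 (adjusted p = 0.243). The Ptprc call was lost without syn-Cre-negative replicate 2 or 3 or gfap-Cre-negative replicate 2 or 4, and also with no filter, in limma-voom and without both syn-Cre-positive 6 and syn-Cre-negative 2. Cd33, a sialic acid receptor, ran from 10.9 to 14.3 (median 11.8) CPM in syn-Cre-positive and 9.31 to 12.04 (median 10.3) CPM in gfap-Cre-positive libraries (log2 difference 0.21 ± 0.076, adjusted p = 0.044), a call lost in 11 of 24 fits without 1 library. Among Cre-negative libraries, at 10.5 to 12.3 (median 11.6) and 8.95 to 11.7 (median 10.9) CPM, it differed by 0.10 ± 0.076 (adjusted p = 0.347).

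The remaining shared genes did not pass. Aif1, the actin-binding protein IBA1, averaged 5.21 ± 0.5302, 4.7 ± 0.364, 5.44 ± 0.741 and 5.08 ± 1.301 CPM, with log2 differences between the lines of -0.11 ± 0.12 and -0.06 ± 0.12. Inpp5d, the inositol phosphatase SHIP1, averaged 13.8 ± 1.28, 13.3 ± 2.39, 12.9 ± 0.902 and 12.8 ± 1.57 CPM, with differences of 0.05 ± 0.096 and 0.10 ± 0.096. Trem2 had differences of -0.01 ± 0.074 and 0.01 ± 0.074, and its adaptor Tyrobp averaged 15.04 ± 1.19, 14.9 ± 2.49, 15.1 ± 1.61 and 14.3 ± 1.696 CPM. The receptor complex on which the disease-associated state depends thus had no called difference in any of the 5 comparisons. Ctss, a protease of microglial lysosomes, averaged 91.04 ± 6.91, 89.3 ± 9.35, 90.4 ± 6.08 and 87.4 ± 12.2 CPM. Lgmn, the asparaginyl endopeptidase, averaged 99.7 ± 6.803, 104 ± 5.03, 102 ± 8.08 and 105 ± 9.88 CPM. Laptm5 averaged 41.9 ± 4.05, 38.7 ± 3.79, 42.2 ± 2.21 and 39.6 ± 2.29 CPM. No comparison called any of these last 3.

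**Figure D4:**
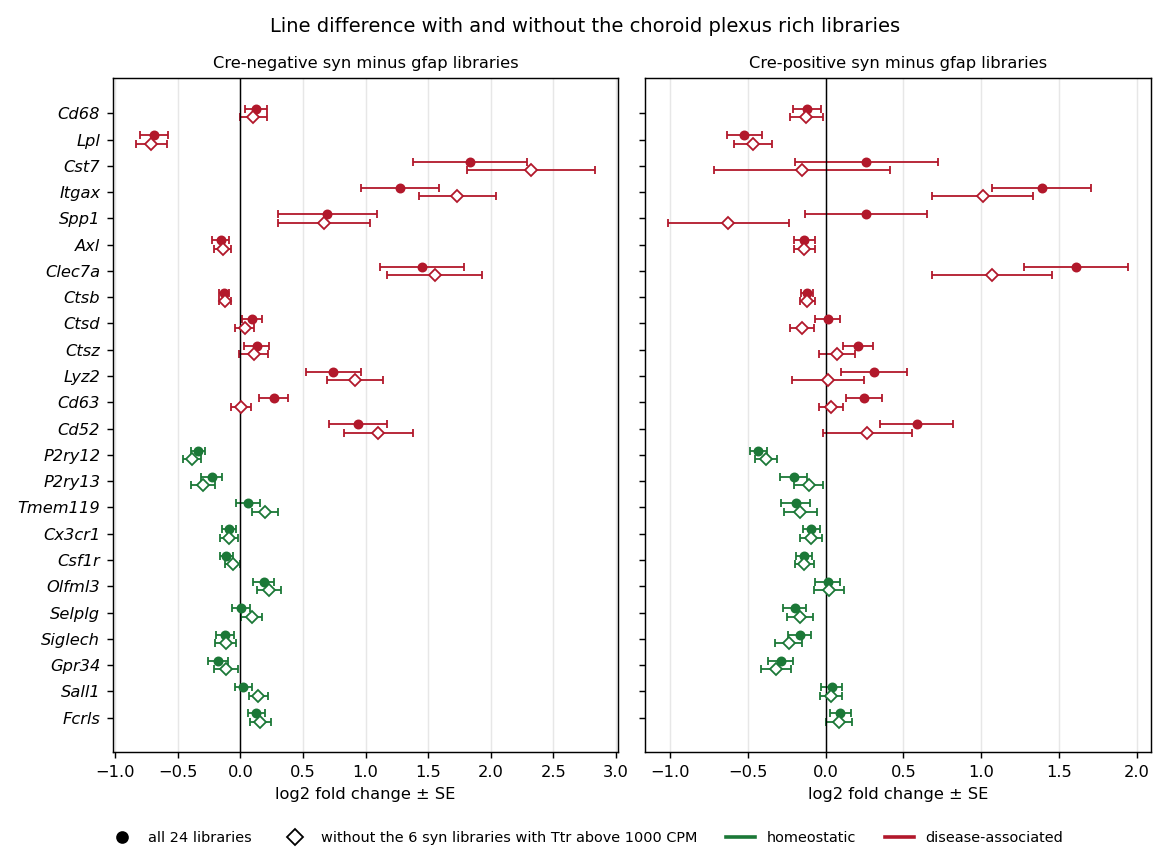
Log2 fold change between the lines, syn minus gfap, with its SE, for the 13 disease-associated and 11 homeostatic genes, in Cre-negative (left) and Cre-positive libraries (right). Filled circles use all 24 libraries and open diamonds leave out the 6 syn libraries with Ttr above 1000 CPM. P2ry12 and Lpl barely moved, Cd63 moved to near 0 in both panels, and Clec7a, Spp1, Lyz2 and Cst7 moved towards or past 0 in the Cre-positive panel.

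Markers of other cells moved with the line too. The 8 choroid plexus genes summed to 69.7 to 5093, 101 to 5361, 51.6 to 273 and 51.3 to 204 CPM in the same order, the 5 ependymal genes to 16.5 to 38.3, 17.5 to 34.2, 5.71 to 12.6 and 6.16 to 12.9 CPM and the 8 oligodendrocyte genes to 5819 to 7802, 5428 to 8356, 3669 to 5415 and 4135 to 5292 CPM. Oligodendrocyte genes were called higher in 7 of 8 cases in Cre-negative and 8 of 8 in Cre-positive syn libraries. Of the choroid plexus genes 8 and 6 of 8 were called higher, and of the ependymal genes 5 and 5 of 5. Border macrophage genes (Mrc1, Cd163, Lyve1, Pf4, F13a1, Cbr2 and Ms4a7) summed to 3.22 to 9.21, 4.51 to 7.85, 2.34 to 11.4 and 4.16 to 7.33 CPM, with 0 of 7 called in either comparison. Blood leukocyte genes summed to 0.711 to 2.29, 0.916 to 1.75, 0.374 to 1.21 and 0.467 to 0.835 CPM, and 2 of the 5 that could be tested, S100a8 and Ccr2, were called higher in Cre-negative syn libraries. No marker of these lists was at 0 in all libraries of a group. Their part in the microglial differences between the lines was not tested.

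Lists of other microglial genes were measured beside the 34. Their calls stand beside 31.2% of all genes called between Cre-negative and 27.5% between Cre-positive libraries of the lines. Of 14 further homeostatic genes, which include the complement genes C1qa, C1qb and C1qc, 2 were called higher in Cre-negative syn libraries and 1 in Cre-positive ones, with medians of 0.03 and -0.03. Hpgds, a prostaglandin D synthase, had log2 differences of 0.23 ± 0.080 (adjusted p = 0.0312) and 0.31 ± 0.080 (adjusted p = 0.00573). Mertk, a receptor for dying cells, had 0.37 ± 0.078 in Cre-negative brains (adjusted p = 0.000841). The 3 C1q genes did not pass. Of 15 further disease-associated genes tested, 2 were called higher and 3 lower in Cre-negative syn libraries and 3 higher and 5 lower in Cre-positive ones, with medians of 0.02 and -0.02. Lgals3, the galectin-3 gene, stood highest among them, with 1.49 ± 0.24 (adjusted p = 5.3e-05) and 1.22 ± 0.23 (adjusted p = 0.000441). Cd9, a tetraspanin that oligodendrocytes also express, had 0.42 ± 0.100 and 0.39 ± 0.100 (adjusted p = 0.00267 and 0.00601). Ank, a pyrophosphate transporter, was lower, with -0.19 ± 0.039 and -0.16 ± 0.039 (adjusted p = 0.000775 and 0.004), and Cd83, a surface immunoglobulin-like protein, was lower too, with -0.32 ± 0.072 and -0.21 ± 0.072 (adjusted p = 0.00142 and 0.0268). For the Cre effects, 0 of 14 and 0 of 15 of these genes were called in either line.

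The balance of the role groups can be put as 1 value per library, the mean log2 CPM of the 11 homeostatic genes minus that of the 13 disease-associated genes. It was 1.16 ± 0.274 in syn-Cre-positive, 1.08 ± 0.186 in syn-Cre-negative, 1.59 ± 0.113 in gfap-Cre-positive and 1.59 ± 0.08596 in gfap-Cre-negative libraries (mean ± SD, n = 6 each). The syn libraries ran from 0.734 to 1.47 and the gfap libraries from 1.39 to 1.73, so the lines overlapped slightly and the groups within a line overlapped. Within the syn-Cre-positive group the value was lower in the libraries high in Ttr, and within the syn-Cre-negative group it was not. Syn-Cre-positive replicates 2, 5 and 6, which are high in Ttr, stood at 1.12, 0.945 and 0.756, and replicates 1, 3 and 4 at 1.47, 1.299 and 1.38. Among syn-Cre-negative libraries the 3 without high Ttr, replicates 1, 2 and 5, stood at 1.27, 0.734 and 1.14. Replicates 3, 4 and 6, high in Ttr, lay within that range at 1.14, 1.03 and 1.17. Without high Ttr the 3 Cre-positive libraries stood above the 3 Cre-negative ones, which so few libraries can do by chance. Over all 6 libraries of each group the ranges, 0.756 to 1.47 and 0.734 to 1.27, overlapped. The disease-associated mean was 3.68 ± 0.296 and 3.73 ± 0.215 in the syn groups and 3.38 ± 0.137 and 3.28 ± 0.0706 in the gfap groups. The homeostatic mean was 4.84 ± 0.0375 and 4.81 ± 0.0837 against 4.98 ± 0.0665 and 4.87 ± 0.0519. Each gene weighs the same in these means, so the sparse Cst7 and Itgax count as much as Ctsb. Summed CPM of the 13 disease-associated genes ordered the lines the other way. Its medians were 930 in syn-Cre-positive, 947 in syn-Cre-negative, 985 in gfap-Cre-positive and 988 in gfap-Cre-negative libraries, with overlapping ranges. The homeostatic sums had medians of 390, 389, 434 and 407 CPM in the same order. These values describe the set and carry no test.

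Within groups the genes of a role group varied together only in part. With group means removed, Pearson's r over the 24 libraries had a median of 0.13 over the 55 homeostatic pairs and 0.23 over the 78 disease-associated pairs, and 0.08 over the 143 pairs between them. The libraries share depth and dissection, and r is given as a description. The closest pairs were Ctsd with Ctsz (0.84), Tmem119 with Selplg (0.84), Csf1r with Ptprc (0.84), Lgmn with Ctsb (0.83), Cd63 with Ctsd (0.82) and Olfml3 with Fcrls (0.82), of which Csf1r with Ptprc and Lgmn with Ctsb cross role groups. P2ry12 had an r of 0.08 with the mean of the other homeostatic genes, against 0.60 for Tmem119 and 0.71 for Olfml3. Several disease-associated genes followed lists of other cells, and some of them a microglial list as well. Cd63 had an r of 0.89 with the choroid plexus list and Ctsd 0.72, Spp1 had 0.89 and Lyz2 0.75 with the border macrophage list, and Cd52 and Clec7a had 0.65 and 0.62 with the oligodendrocyte list. With the list of further homeostatic microglial genes, r was 0.37 for Cd63, 0.67 for Ctsd, 0.39 for Spp1, 0.65 for Lyz2, 0.50 for Cd52 and 0.48 for Clec7a. Itgax had -0.07 with the choroid plexus list and 0.50 with the other homeostatic genes.

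**Figure D5:**
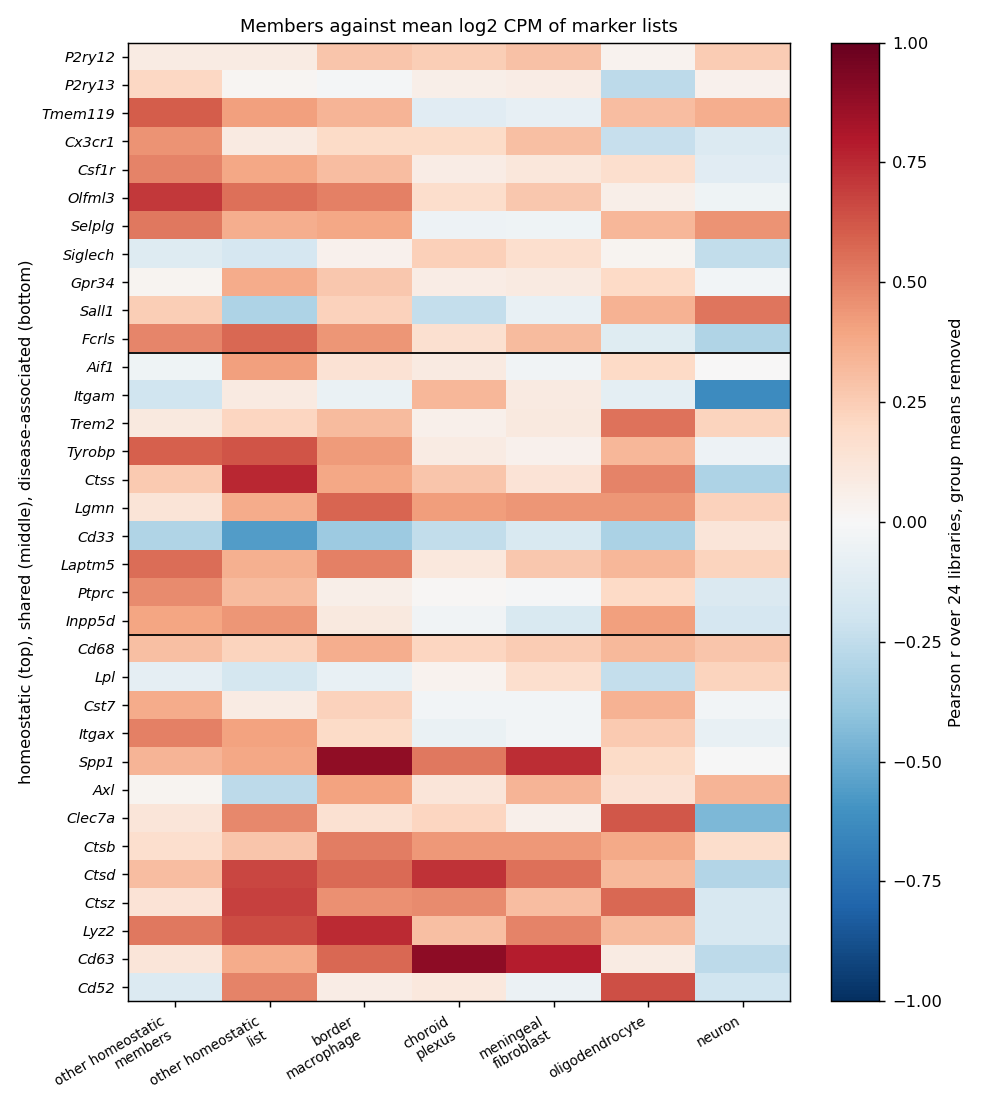
Pearson's r over 24 libraries, group means removed, between each of the 34 genes (rows, by role group) and the mean log2 CPM of 7 gene lists (columns), from -1 in blue to 1 in red. Cd63 and Ctsd are deepest red under choroid plexus, Spp1 and Lyz2 under border macrophage, and Olfml3 and Tmem119 under the other homeostatic members, while P2ry12 is pale throughout.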

How the data were processed

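The authors deposited whole-number counts per gene, not normalized, for each of 24 brain libraries. The submitters' processing notes name HISAT2, HTSeq 0.6.0, DESeq2 1.6.3 and mm10. No source used here states the strand setting or annotation release, so overlapping genes may share reads. GENCODE M21 (GRCm38) gave symbols for 52489 of 52636 identifiers (99.7%). The file lines that name no gene entered neither library sizes nor tests. They held 4.47 to 11.1% of a file as reads outside genes, 3.19 to 7.46% as ambiguous and 13.7 to 15.6% as not uniquely aligned.

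The analysis used edgeR 4.0.16 in R 4.3.3: filterByExpr, TMM scaling, and a robust quasi-likelihood F test from a single model of all 24 libraries in 4 groups (20 residual degrees of freedom, common dispersion 0.0198). Calls are Benjamini-Hochberg adjusted p values under 0.05 over 19726 genes, and intervals are 95%. The 5 comparisons were the Cre effect in each line, their difference, and syn minus gfap among Cre-negative and among Cre-positive libraries. RPKM divided CPM by exon length. The fit was tested on simulated data. Replicates are separate mice per the labels' protocols.

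The 34 genes, the lists and the tests were chosen with earlier results of these data known. All 34 are named. Described in full were P2ry12, Tmem119, Cst7 and Itgax, the genes of smallest p in each role group (2 for each Cre comparison, 4 between the lines) and every called gene. From other lists up to 3 genes of smallest p were named where any was called, while the C1q genes and Spi1 were chosen after their values were seen. Alternatives were RLE and upper-quartile scaling, no filter or 1 CPM in 6 libraries, DESeq2 1.42.0, limma-voom (limma 3.58.1), the groups of a comparison alone, each library left out, and the libraries with Ttr above 1000 CPM left out. The fit without syn-Cre-positive 6 and syn-Cre-negative 2 was chosen after seeing the data. Promoters are from RefSeq (GRCm38.p6).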

Additional observations from a re-analysis of the deposited data

Results flagged for a closer look

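Of the 136 gene and group combinations, 12 held a library whose gap to the nearest of the others was a large part of the group's range (past Dixon's 95% critical value for 6 values), where chance gives about 1 in 20, or 6.8. They gathered in few libraries. Replicate 2 of the syn-Cre-negative group held 4: Itgax at 2.49 CPM against at most 1.03 in the other 5, Cst7 at 1.698 CPM against at most 0.779 in the other 5, Lyz2 at 25.8 CPM against at most 16.2 in the other 5 and Laptm5 at 46.2 CPM against at most 39 in the other 5. All 4 were high there, and 3 of them are disease-associated genes.

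Replicate 4 of the gfap-Cre-negative group also held 4: Ctss at 112 CPM against at most 85.2 in the other 5, Aif1 at 7.65 CPM against at most 4.81 in the other 5, P2ry13 low at 11.3 CPM against at least 14.7 in the other 5 and Cd33 low at 8.95 CPM against at least 10.7 in the other 5. In syn-Cre-positive replicate 5 Sall1 stood high at 31.3 CPM against at most 27.6 in the other 5 and Lpl low at 33.7 CPM against at least 45.7 in the other 5. Itgam stood at 8.79 CPM against at most 7.56 in the other 5 in syn-Cre-positive replicate 2, and Trem2 at 19.8 CPM against at most 16.2 in the other 5 in gfap-Cre-positive replicate 4. Syn-Cre-positive replicates 2 and 5 are among the libraries with Ttr above 1000 CPM, and syn-Cre-negative replicate 2 and gfap-Cre-negative replicate 4 are not.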

How the results depend on the processing

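No call was made among the 34 genes for either Cre effect or their difference under any setting or with any library left out. Without the 6 libraries with Ttr above 1000 CPM, the syn Cre medians were -0.041 (homeostatic, 0.030 with all libraries) and -0.17 (disease-associated, 0.028 with all), the medians of the difference of Cre effects were -0.11 (homeostatic), -0.058 (shared) and -0.23 (disease-associated), the Cre-positive comparison of lines called 5 genes, and its disease-associated median was -0.12. In that fit P2ry12 reversed to 0.10 (syn Cre) and 0.0062 (difference), Itgax to -0.72 (difference) and Cst7 to -0.15 (Cre-positive lines). P2ry12 for syn Cre reversed to 0.00057 with upper-quartile factors, Itgax for syn Cre to 0.10 in limma-voom and 0.22 without syn-Cre-positive 6 and syn-Cre-negative 2, and Aif1 between Cre-negative lines to 0.018 in limma-voom. The causes were not tested. The disease-associated syn Cre median was -0.019 in limma-voom. Homeostatic calls between Cre-negative lines were 1 higher and 1 lower with upper-quartile scaling, the 1 CPM filter and DESeq2 (0 and 2 in the main edgeR fit). In limma-voom 0 were higher and 4 lower there, and 0 higher and 5 lower between Cre-positive lines. With 1 library left out, values ran from -0.12 to 0.056 for the disease-associated syn Cre median, -0.031 to 0.020 for P2ry12 (syn Cre), -0.23 to 0.41 for Itgax (syn Cre), -0.066 to 0.58 for Itgax (difference), -0.16 to 0.053 for Aif1 and -0.0051 to 0.14 for Tmem119 (Cre-negative lines), and calls between Cre-positive lines from 5 to 10 and between Cre-negative lines from 10 to 12. Calls over all genes without the libraries high in Ttr were 3647 between Cre-negative lines (6161 with all) and 2259 between Cre-positive lines (5416 with all), and DESeq2 and limma-voom called 14 and 7 for syn Cre (1 in edgeR). No paired analysis was possible because the labels give no replicate numbers and the numbers used follow accession order. Cst7, Spp1, Clec7a, Itgax and Cd52 had the widest errors for the Cre effects, and of these all but Spp1 had the fewest counts.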

Other observations

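Ligands and regulators of microglia were measured in the same tissue. Of 13 such genes tested, 1 was called higher and 2 lower in Cre-negative syn libraries and 1 higher and 3 lower in Cre-positive ones. Over all genes 31.2% and 27.5% were called in these comparisons, so the ligands and regulators did not stand out by their number of calls. Cx3cl1, the neuronal ligand of Cx3cr1, ran from 473 to 632 (median 543) CPM in syn-Cre-negative and 585 to 666 (median 617) CPM in gfap-Cre-negative libraries, with log2 differences of -0.18 ± 0.053 (edgeR adjusted p = 0.0114) and, among Cre-positive libraries, -0.25 ± 0.053 (adjusted p = 0.00113). Sirpa, which on microglia receives the CD47 signal and is also made by neurons, had -0.17 ± 0.043 and -0.27 ± 0.043 (adjusted p = 0.00447 and 8.2e-05). The ligands of Csf1r differed in sign: Csf1 was higher by 0.20 ± 0.074 and 0.22 ± 0.074 (adjusted p = 0.0357 and 0.0244), while Il34, made by neurons, had -0.13 ± 0.062 (adjusted p = 0.114) and -0.19 ± 0.062 (adjusted p = 0.0236). Spi1, which encodes PU.1, had -0.20 ± 0.14 and 0.06 ± 0.14 and did not pass. For the Cre effects 0 of 13 were called in either line. Beside these values, 9 and 7 of 10 neuron markers were called lower in the syn line, and the part of neuronal RNA in these values was not tested.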
